A study of Mus musculus with 81 samples.

Results

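Bone marrow-derived macrophages (BMDMs) are made by growing marrow cells in medium that contains M-CSF, and the last step of that culture in wild-type (WT) cells, from day 5 to day 7, is described here. Its libraries were chosen by their titles alone: WT cells of the time course, 3 libraries of day 7 against 3 of day 5, that is 6 of the 18 libraries of the time course and of the 81 libraries of the whole series. WT mice were H3f3a fl/fl H3f3b fl/fl on a C57BL/6 background, of either sex and 8 to 10 weeks old, so all 6 libraries carry floxed but intact alleles of both genes for the replacement histone H3.3. Marrow from femurs and tibias was grown with 20% L929 conditioned medium, which supplies M-CSF. The titles call the cells of days 3 and 5 BMDM progenitors and those of day 7 BMDMs. The cKO cells, used below for 1 comparison, carried the same floxed alleles and LysM cre/cre, in which cre is expressed from both copies of Lyz2, the lysozyme gene of myeloid cells. Replicates are labelled as biological, a term the study uses for independent experiments and, for its counts of BMDMs, for cultures of different mice. The labels do not say which animal gave which library, so p-values measure the spread between samples. That spread was estimated over all 18 libraries of the time course, with day 3 and cKO cells included.

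M-CSF is the ligand of the receptor encoded by Csf1r, and it keeps monocytes and macrophages alive and lets their precursors divide. In marrow culture, stem and progenitor cells and granulocyte precursors give way to adherent macrophages, which leave the cell cycle as they mature. Granulocyte precursors load their granules with proteases and antimicrobial proteins that are made only at early stages, so transcripts for these proteins mark promyelocytes and myelocytes. Macrophages are known for phagocytosis, lysosomal digestion and a standing supply of sensors for microbes and interferon.

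The 6 libraries held 14419697 to 20220329 counts on genes, with a median of 17218034.5, and 15955 of the 55450 listed genes passed the filter on low counts. No replicates agreed within sampling noise: the chi-square per degree of freedom between libraries of the same day was 3.48 to 38.9 on day 5 and 55.7 to 131 on day 7. Replicates 2 and 3 of day 5 were the closest pair, and 2 libraries stood apart on the first principal component. WT day 5 replicate 1 lay nearer to the day 7 libraries than its partners on the first principal component, which held 48.1% of the variance (-0.49 against -43.4 and -41.7). Id1, which encodes an inhibitor of basic helix-loop-helix factors, was at 2.09 CPM, read counts scaled to the size of the library, in that library and at 71.7 and 66.8 in its partners, and Id3, a gene of the same family, was at 0.418 against 49.1 and 49.1 (both chosen after their values were seen). For both genes, and for Cd34 and Ccr1 below, its level lay in or near the range of day 7, which goes against its label, while its levels of Elane, Mpo and Ngp lay far above day 7. It was kept in its labelled group, and the counts of calls are given with and without it. WT day 7 replicate 2 was at 80.7 on that component, against -6.00 and 10.9 for its partners. Its summed level over 50 DNA replication genes was 1086 CPM, against 4398 and 3281 in the other day 7 libraries. On the second component, which held 24.6% of the variance, WT day 7 replicate 1 was at -59.5, against 21.6 and -2.79 for its partners. The fits below without both libraries that stood apart still hold WT day 7 replicate 1.

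Of the 15955 genes tested, 38 were called at an adjusted p under 0.05 in edgeR's quasi-likelihood test with Benjamini-Hochberg adjustment. On day 7, 12 genes were higher (0.0752% of those tested) and 26 were lower (0.163%). The values of the 2 days did not overlap for any of the 38, and 36 changed by at least 2-fold. Over all genes, the days did not overlap for 1207 genes that were higher (7.57%) and for 1146 that were lower (7.18%), the median log2 fold change was 0.02, and 2760 genes had an unadjusted p under 0.05, of which 1592 were higher (9.98% of those tested) and 1168 lower (7.32%). Counts of list members at an unadjusted p, or without overlap between days, are to be read against these shares. An alternative test, DESeq2, called far more of the 15955 genes, 370 higher and 251 lower. Its counts of list members are to be read against these numbers and not against the shares called by edgeR. Of the 38 genes, 35 are protein coding and 12 belong to at least 1 of the 47 gene lists used here. Of the 26 genes that fell, 7 are on the list of neutrophil granule genes and 1, Myb, is on that of progenitor genes, and of the 12 that rose, 1, Irf9, is on the interferon response list.

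**Figure D1:**
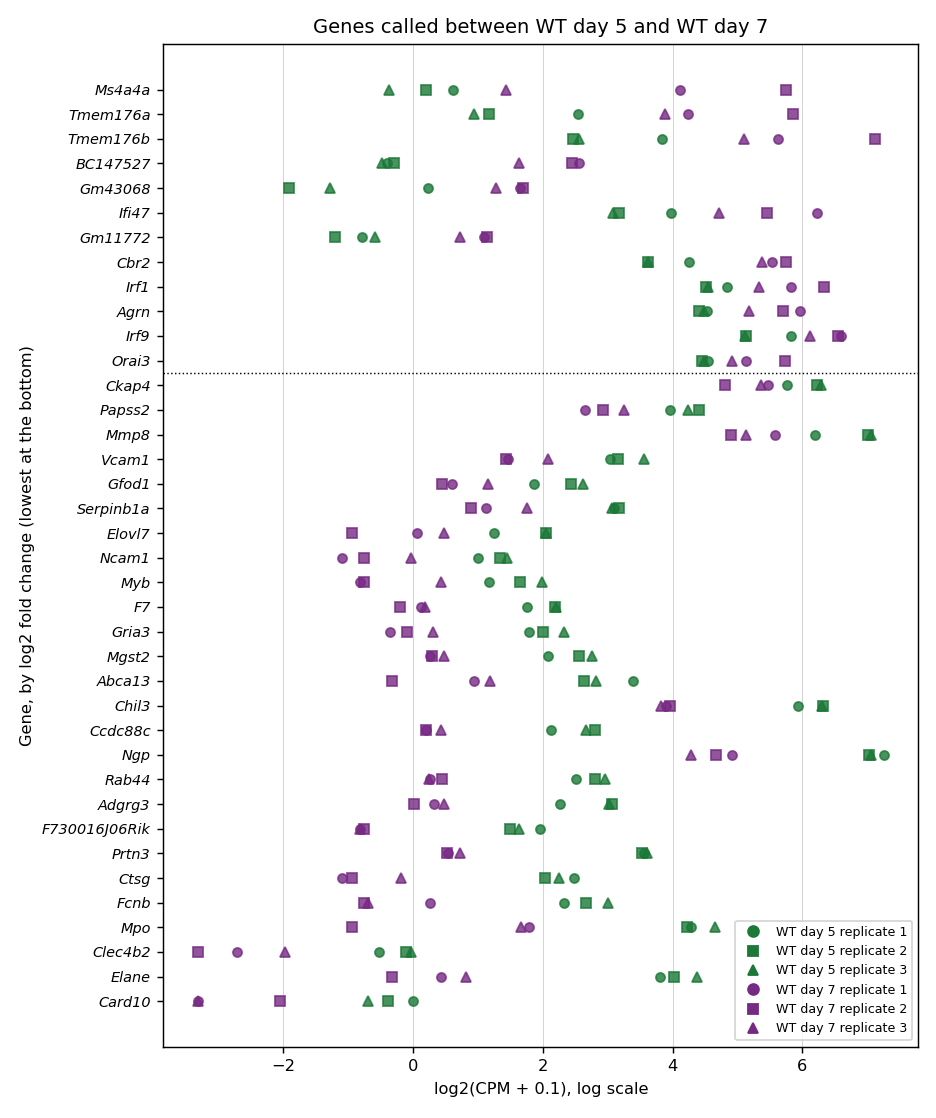
Level of the 38 called genes in each of the 6 WT libraries, as log2(CPM + 0.1) on a log scale, with 1 row per gene ordered by log2 fold change. Green marks day 5, purple marks day 7, and circle, square and triangle mark replicates 1, 2 and 3; genes above the dotted line were higher on day 7 (12) and those below it were lower (26), and in no row do the colours overlap.

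The number of calls depended on which library was left out. Without WT day 5 replicate 1 the test called 523 genes, and dropping WT day 7 replicate 3 gave 483. Dropping WT day 5 replicate 2 or WT day 5 replicate 3 gave 1 call each, and dropping WT day 7 replicate 1 or WT day 7 replicate 2 gave 3 and 1. All 38 genes kept their direction in each of these 6 fits, which the lack of overlap between their days largely fixed in advance. DESeq2 called 621 genes on all libraries, 36 of the 38 among them. Without both libraries that stood apart, a comparison added after the data were seen, 371 genes were called, 30 of the 38 among them. A model of the 6 WT libraries alone, which uses only their own spread, called 13 genes, 0 higher and 13 lower. Of the 38, 7 were still called there.

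**Figure D2:**
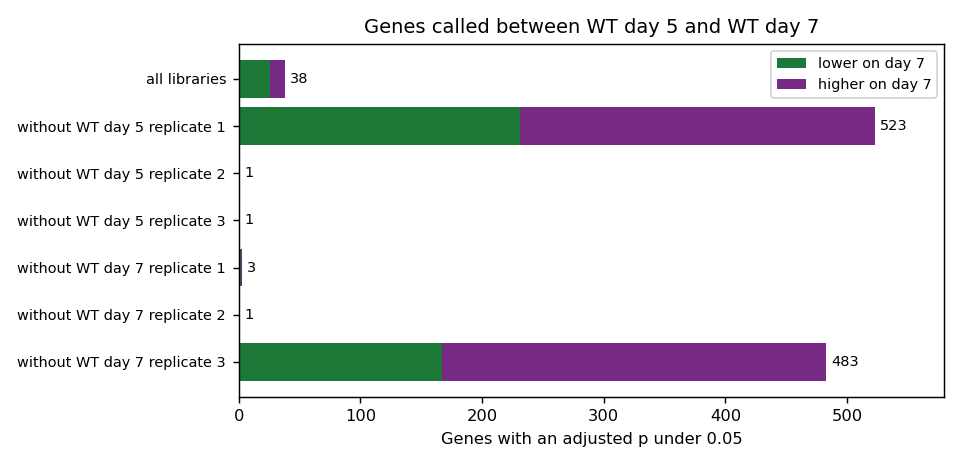
Number of genes with an adjusted p under 0.05 between WT day 5 and WT day 7, with all libraries and after leaving out each of the 6 in turn; green bars count genes lower on day 7 and purple bars genes higher. All libraries gave 38 calls, and leaving out 1 library gave between 1 and 523.

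Genes for neutrophil granule proteins fell. The list holds proteases, peroxidase and antimicrobial proteins of primary, secondary and tertiary granules, and 7 of its 35 tested members were called lower and 0 higher. Its median log2 fold change was -1.92, against 0.02 over all genes tested. The days did not overlap for 22 members that were lower, against 7.18% of all genes tested in that direction. The 4 genes below encode proteins of the primary granule and are shown because they are the genes for primary granule enzymes among the 7 called. Each window comes from RefSeq on GRCm38.p6 and runs from 250 bases before the gene's start to 50 after it. Capitals mark GAGGAA, a core of sites for the myeloid factor PU.1, AACGG, a core of MYB sites, and TTGCNNAA, a form of C/EBP sites, each searched on both strands; the matches in capitals do not overlap one another. Elane is at chr10:79886062-79886361 on the plus strand, Prtn3 at chr10:79879417-79879716 on the plus strand, Mpo at chr11:87793534-87793833 on the plus strand and Ctsg at chr14:56102525-56102824 on the minus strand.
Elane: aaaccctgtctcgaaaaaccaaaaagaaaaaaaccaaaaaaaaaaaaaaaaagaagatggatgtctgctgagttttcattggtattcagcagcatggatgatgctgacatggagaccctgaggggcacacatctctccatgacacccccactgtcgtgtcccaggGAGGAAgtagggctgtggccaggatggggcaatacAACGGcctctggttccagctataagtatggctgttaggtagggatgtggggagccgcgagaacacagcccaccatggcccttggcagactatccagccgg
Prtn3: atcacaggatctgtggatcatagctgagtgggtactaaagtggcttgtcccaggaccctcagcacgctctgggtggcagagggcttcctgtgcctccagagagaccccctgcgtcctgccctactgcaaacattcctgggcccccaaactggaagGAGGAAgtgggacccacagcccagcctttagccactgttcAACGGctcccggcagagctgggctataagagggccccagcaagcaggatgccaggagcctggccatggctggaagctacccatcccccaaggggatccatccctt
Mpo: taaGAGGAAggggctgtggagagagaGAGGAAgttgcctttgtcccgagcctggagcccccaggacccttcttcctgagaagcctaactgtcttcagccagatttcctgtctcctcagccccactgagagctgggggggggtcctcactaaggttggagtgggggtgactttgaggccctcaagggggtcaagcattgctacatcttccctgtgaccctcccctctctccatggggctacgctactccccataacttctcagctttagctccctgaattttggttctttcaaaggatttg
Ctsg: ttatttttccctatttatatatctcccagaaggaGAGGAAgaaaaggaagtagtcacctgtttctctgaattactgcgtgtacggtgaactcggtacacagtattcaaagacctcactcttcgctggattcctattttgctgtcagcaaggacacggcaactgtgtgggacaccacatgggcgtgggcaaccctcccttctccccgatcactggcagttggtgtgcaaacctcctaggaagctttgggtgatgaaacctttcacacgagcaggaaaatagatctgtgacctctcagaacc

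Elane and Prtn3 are neighbours, and the starts of their windows are 6645 bases apart. In Elane, GAGGAA lies 85 bases and AACGG 50 bases before the start, which sets them 35 bases apart. In Prtn3 the same letters lie at 95 and 55 bases before the start, 40 bases apart. Mpo holds GAGGAA at 247 and 224 bases before its start, Ctsg holds it at 216, and neither window holds AACGG. TTGCNNAA is in none of these 4 windows. Over all genes with a window, 31.3% held GAGGAA, 19.6% AACGG and 12.2% TTGCNNAA. Of the 38 called genes, 30 have a window: GAGGAA was in 11 of the 19 that were lower and 7 of the 11 that were higher, AACGG in 2 and 0, and TTGCNNAA in 3 and 2. These matches describe letters and are no evidence of binding.

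Elane, which encodes neutrophil elastase, was at 13.9, 16.1 and 20.7 CPM on day 5 and at 1.25, 0.700 and 1.65 CPM on day 7. All 3 day 7 libraries lay under the lowest day 5 library, and the mean fell 14-fold (adjusted p 0.0121, log2 fold change -3.77, SE 0.55). Prtn3, which encodes proteinase 3, was at 11.7, 11.4 and 12.0 CPM and then at 1.36, 1.33 and 1.55 CPM. Its replicates were close on both days, with a log2 fold change of -3.04 with an SE of 0.57 (adjusted p 0.0461). Its locus overlaps Plppr3 on the other strand, and counts without strand cannot separate them. Mpo, the myeloperoxidase gene, was at 19.5, 18.5 and 25.1 CPM on day 5 and at 3.34, 0.420 and 3.05 CPM on day 7. The lowest level was in WT day 7 replicate 2, and the log2 fold change was -3.16 with an SE of 0.54 (adjusted p 0.0268). Ctsg, which encodes cathepsin G, was at 5.49, 3.98 and 4.64 CPM and then at 0.365, 0.420 and 0.775 CPM. The days were apart, with a log2 fold change of -3.14 with an SE of 0.57 (adjusted p 0.0416).

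The other called granule genes encode proteins of later granules. Ngp, which encodes a secondary granule protein, was at 153, 131 and 133 CPM on day 5 and at 30.1, 25.4 and 19.3 CPM on day 7. Its log2 fold change was -2.48 with an SE of 0.49 (adjusted p 0.0490). Fcnb, which encodes the lectin ficolin B, was at 4.89, 6.24 and 7.95 CPM and then at 1.09, 0.490 and 0.517 CPM. Its log2 fold change was -3.15 with an SE of 0.50 (adjusted p 0.0175). Mmp8, which encodes neutrophil collagenase, was at 73.1, 129 and 133 CPM and then at 47.9, 29.8 and 35.0 CPM. Its fall was the smallest of the 7 (adjusted p 0.0175, log2 fold change -1.57, SE 0.25), and replicate 1 was the lowest of day 5 and the highest of day 7. Lead genes of the list that missed the threshold had values in the same direction: Ltf, the lactoferrin gene, had means of 115 ± 2.12 and 25 ± 5.95 CPM (SD, n = 3; adjusted p 0.0804), Camp, the cathelicidin gene, 12.3 ± 1.70 and 2.31 ± 0.489 CPM (adjusted p 0.0772), and S100a8, which encodes a calprotectin subunit, 85.7 ± 14.7 and 22.1 ± 8.38 CPM (adjusted p 0.0804).

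The levels of day 3 stand beside these without a test. Mean levels on day 3 were 170 ± 49.1 CPM for Elane, 212 ± 58.0 for Mpo, 125 ± 46.1 for Prtn3, 58.0 ± 13.6 for Ctsg and 562 ± 127 for Ngp (SD, n = 3). Each was above all day 5 and day 7 values of the same gene. The summed level over the list was 3047 to 4899 CPM on day 3, 1234 to 1284 CPM on day 5 and 519.9 to 1077 CPM on day 7. The highest day 7 sum was that of replicate 1, in which Anxa1 (chosen after its values were seen), a list member that macrophages express too, was at 761.9 CPM. In bulk RNA, fewer cells of a type and less RNA per cell cannot be told apart, here and in every result that follows.

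Leaving out libraries changed these calls more than these sizes. The median of the list was between -2.19 and -1.75 over all alternatives. Without WT day 5 replicate 1 the called members numbered 9, and dropping WT day 7 replicate 3 gave 8. Dropping WT day 7 replicate 1 gave 1, and dropping WT day 5 replicate 2, WT day 5 replicate 3 or WT day 7 replicate 2 gave 0. Without both libraries that stood apart 4 were called.

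Genes of progenitor cells and monocytes went both ways, with more members lower than higher and few calls. Of 31 tested progenitor genes edgeR called 1 lower and 0 higher and DESeq2 called 6 lower and 2 higher. Values were negative for 22 members and positive for 9, with a median log2 change of -0.67. The days did not overlap for 11 that were lower and 2 that were higher, against 7.18% and 7.57% of all genes tested. The summed level went the other way, from 1392 to 1626 CPM on day 5 to between 1735 and 1885 CPM on day 7, and most of it came from Cd93 (chosen after its values were seen), a C-type lectin that macrophages express too, at 1154, 933 and 980.5 CPM and then at 1257, 1237 and 1217 CPM (adjusted p 0.471). The called gene was Myb, which encodes a factor that haematopoietic progenitors need to divide. Myb was at 2.15, 3.04 and 3.87 CPM on day 5 and at 0.469, 0.490 and 1.24 CPM on day 7. The days were apart, with a log2 fold change of -2.01 with an SE of 0.39 (adjusted p 0.0490), and the mean on day 3 was 17.1 ± 4.47 CPM. Gfi1, which encodes a repressor that granulocyte differentiation needs, was at 1.19, 1.22 and 1.96 CPM and then at 0.157, 0.0700 and 0.259 CPM (adjusted p 0.0793). Cd34, a surface protein of stem and progenitor cells, was at 0.895, 19.6 and 20.2 CPM on day 5, so that the library that stood apart was already within the day 7 range of 0.261 to 2.53 CPM (adjusted p 0.0854). Kit, the receptor for stem cell factor, overlapped between days (2.67 ± 0.277 and 1.63 ± 1.48 CPM, adjusted p 0.500).

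Of 30 tested monocyte-stage genes edgeR called 1 lower and 0 higher and DESeq2 called 7 lower and 4 higher. Values were negative for 20 members and positive for 10, with a median log2 change of -0.65, while the summed level overlapped between days (1122 to 1256 CPM and 980.1 to 1720 CPM). Chil3, which encodes the chitinase-like protein Ym1, was at 60.9, 79.8 and 79.1 CPM on day 5 and at 14.9, 15.5 and 14 CPM on day 7. The day 7 libraries were close together, and the log2 fold change was -2.31 with an SE of 0.39 (adjusted p 0.0268). Ly6c2, the surface marker of inflammatory monocytes, was at 14.8, 12.8 and 13.9 CPM and then at 2.66, 1.82 and 3.15 CPM, with no overlap and an adjusted p of 0.0778. Plac8 was at 4.26 ± 0.434 and 1.10 ± 0.225 CPM (adjusted p 0.140). F13a1 and Fn1, which encode coagulation factor XIII A and fibronectin, overlapped between days: F13a1 was at 42.6, 184 and 183 CPM on day 5 and at 16.1, 97.5 and 58.7 CPM on day 7, and Fn1 at 8.6, 41.8 and 29.9 CPM and then at 2.66, 19 and 9.88 CPM (adjusted p 0.235 and 0.264). In both genes WT day 5 replicate 1 was the low library of its day. Ccr2, the receptor that brings monocytes out of the marrow, was at 86.1, 126 and 128 CPM and then at 72.5, 267 and 80.8 CPM, with a log2 fold change of 0.30 (adjusted p 0.806).

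Other genes that fell are known from adhesion, sulphate transfer and vesicle traffic. Vcam1, an adhesion molecule for integrin-bearing leukocytes, was at 8.12, 8.84 and 11.7 CPM on day 5 and at 2.66, 2.59 and 4.14 CPM on day 7. It was the called member of the macrophage surface list, with a log2 fold change of -1.60 with an SE of 0.25 (adjusted p 0.0175). Papss2, which makes the sulphate donor PAPS, was at 15.5, 21.2 and 18.8 CPM and then at 6.15, 7.49 and 9.41 CPM (adjusted p 0.0175, log2 fold change -1.27, SE 0.20). Ckap4, a membrane protein of the rough endoplasmic reticulum, was at 54.3, 75 and 77.7 CPM and then at 44.1, 27.8 and 40.9 CPM. It fell by less than 2-fold (adjusted p 0.0461, log2 fold change -0.88, SE 0.17).

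Of the 38 called genes, 17 lie outside the rule for naming genes and were chosen after their values were seen. The lowest adjusted p was that of F730016J06Rik, a long non-coding RNA gene on chromosome 2, which was at 3.76, 2.71 and 2.99 CPM on day 5 and at 0.469, 0.490 and 0.465 CPM on day 7 (adjusted p 0.00935, log2 fold change -2.71, SE 0.34). It lies at chr2:28095477-28127731 and Fcnb at chr2:28076378-28084885 (GRCm38), and it stayed called under 14 of 15 alternatives, the exception being WT day 7 replicate 2 left out (adjusted p 0.0515). Rab44, which encodes a large Rab-family GTPase, was at 5.61, 6.91 and 7.69 CPM and then at 1.09, 1.26 and 1.09 CPM (adjusted p 0.0103, log2 fold change -2.56, SE 0.36). Adgrg3, an adhesion receptor of granulocytes, had means of 7.0 ± 1.98 and 1.12 ± 0.193 CPM, and Serpinb1a, an inhibitor of neutrophil serine proteases, had 8.52 ± 0.332 and 2.36 ± 0.792 CPM. Their adjusted p-values were 0.0166 and 0.0424. Ccdc88c, Gria3, Mgst2, F7, Ncam1, Gfod1, Elovl7 and Abca13 had mean levels between 2.32 and 7.79 CPM on day 5 and between 0.578 and 1.60 CPM on day 7, with adjusted p-values between 0.0103 and 0.0490. F7 encodes coagulation factor VII, Ncam1 the adhesion molecule CD56, Mgst2 a microsomal glutathione transferase that can make leukotriene C and Elovl7 a fatty acid elongase. Clec4b2 and Card10 were near the limit of detection on day 7, at 0 to 0.155 and 0 to 0.140 CPM, against 0.597 to 0.877 and 0.516 to 0.895 CPM on day 5, and no fold is given for them.

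Among the genes that rose, Tmem176a and Tmem176b are neighbours that encode membrane proteins related to the Ms4a family and known from myeloid and dendritic cells. Tmem176b was at 14.2, 5.41 and 5.78 CPM on day 5 and at 49.1, 139 and 34.2 CPM on day 7. Replicate 1 was the highest of day 5 and replicate 2 of day 7, with no overlap and a log2 fold change of 3.13 with an SE of 0.55 (adjusted p 0.0345). Tmem176a was at 5.73, 2.15 and 1.81 CPM and then at 18.8, 57.8 and 14.6 CPM (adjusted p 0.0490, log2 fold change 3.24, SE 0.62). The same libraries were high. The loci overlap by 578 bases on opposite strands, so a part of the reads of either gene could not be assigned.

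Ms4a4a, a tetraspan-like surface protein of macrophages, was at 1.43, 1.05 and 0.671 CPM on day 5 and at 17.3, 53.9 and 2.59 CPM on day 7. Its day 7 levels spread widely, replicate 3 being closest to day 5 (adjusted p 0.0490, log2 fold change 4.54, SE 0.89). Cbr2, which encodes a carbonyl reductase on the list of alternative activation, was at 19, 12.2 and 12.2 CPM and then at 46.0, 53.5 and 41.7 CPM. All 3 day 7 libraries were over 40 CPM, with a log2 fold change of 1.70 with an SE of 0.31 (adjusted p 0.0416). The other called member of that list, Chil3, was lower, and the median over the 15 tested members was 0.21. Agrn, which encodes the matrix proteoglycan agrin, was at 22.9, 21.1 and 22.3 CPM and then at 62.5, 51.7 and 36.1 CPM (adjusted p 0.0358, log2 fold change 1.18, SE 0.21). Orai3, a subunit of calcium release-activated channels, was at 23.3, 21.7 and 22.2 CPM and then at 34.9, 53 and 30.2 CPM. Its change was the smallest of the 12 (adjusted p 0.0496, log2 fold change 0.81, SE 0.16). BC147527, Gm43068 and Gm11772, chosen after their values were seen, were at 0.166 to 1.07 CPM on day 5 and at 1.55 to 5.79 CPM on day 7. Gm43068 overlaps Oas2, an interferon response gene, on the other strand, and its reads cannot be told apart from those of Oas2.

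Genes of the interferon response had higher values on day 7 with few calls. All 56 tested members had positive log2 fold changes, with a median of 1.98 against 0.02 over all genes tested. The days did not overlap for 51 of the 56, against 7.57% of all genes tested in that direction, and 54 had an unadjusted p under 0.05. At an adjusted p under 0.05, 1 member was called higher and 0 lower. That member was Irf9, the DNA-binding subunit of the ISGF3 complex that carries type I interferon signals to the nucleus. Irf9 was at 56.4, 35.0 and 34.6 CPM on day 5 and at 96.5, 93.9 and 69.5 CPM on day 7. Each day 7 library was over each day 5 library, with a log2 fold change of 1.04 with an SE of 0.19 (adjusted p 0.0416). DESeq2 called 47 members higher.

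Irf1 and Ifi47 were called too and lie outside the list. Irf1, which encodes a factor induced by interferon gamma, was at 28.5, 22.8 and 23.3 CPM and then at 56.4, 80.2 and 40.3 CPM (adjusted p 0.0490, log2 fold change 1.25, SE 0.24). Ifi47, which encodes an interferon-inducible GTPase, was at 15.7, 8.95 and 8.36 CPM and then at 74.5, 43.6 and 26.2 CPM (adjusted p 0.0490, log2 fold change 2.13, SE 0.42). In both genes day 5 replicate 1 was the highest of its day and day 7 replicate 3 the lowest. Ifi47 shares 20388 bases with Olfr56 on the same strand, and Irf1 shares 907 bases with Gm17334 on the opposite strand. The window at the first start of Irf1, chr11:53769764-53770063 on the plus strand (RefSeq, GRCm38.p6), is shown because it holds a GAS-type match, TTCNNNGAA, a form of the interferon gamma-activated site. The match, TTCCCCGAA in capitals, lies 90 bases before the start, and 9.6% of all genes with a window hold such letters on either strand. GAAANNGAA, a core of the ISRE bound by IRF9 complexes, was not in this window and was in 9.8% of genes. The other window of Irf1 and the windows of Irf9 and Ifi47 were searched too and held neither form. TTCNNNGAA was in 1 of the 11 called higher genes with a window and in 3 of the 19 called lower, Ctsg among the latter, and GAAANNGAA in 1 and 2.
Irf1: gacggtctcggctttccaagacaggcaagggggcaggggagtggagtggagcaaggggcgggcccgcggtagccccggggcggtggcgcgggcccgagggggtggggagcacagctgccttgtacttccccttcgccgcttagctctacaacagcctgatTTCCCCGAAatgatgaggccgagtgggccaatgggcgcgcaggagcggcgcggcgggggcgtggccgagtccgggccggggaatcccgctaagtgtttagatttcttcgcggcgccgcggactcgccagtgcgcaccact

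The lead genes of the list did not pass the threshold although their day 7 libraries were all above day 5. Irf7, the amplifier of type I interferon production, was at 34.3, 7.24 and 8.05 CPM on day 5 and at 341, 80.6 and 45.2 CPM on day 7 (adjusted p 0.10, log2 fold change 3.24, SE 0.88). Isg15, which encodes a ubiquitin-like modifier, was at 8.48, 2.04 and 1.75 CPM and then at 99.8, 15.8 and 12.9 CPM (adjusted p 0.111). Ifit1 and Oasl1, which encode antiviral effectors, had means of 5.08 ± 5.02 and 2.17 ± 1.54 CPM on day 5 and of 56.9 ± 49.3 and 24.1 ± 31.4 CPM on day 7 (adjusted p 0.0801 and 0.104). In all 4 genes replicate 1 was the highest of both days, and in Irf7, Isg15 and Oasl1 the SD of day 7 was larger than its mean.

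The same libraries set the sums over the list, which were 3208, 1510 and 1504 CPM on day 5 and 11280, 5639 and 4070 CPM on day 7. The day 3 mean was 1242 ± 159 CPM. The list median was 1.38 without WT day 7 replicate 1 and 2.60 when WT day 5 replicate 1 was left out. It was 2.82 without both libraries that stood apart, a fit that kept WT day 7 replicate 1. Called members numbered 36 without WT day 5 replicate 1, 39 when WT day 7 replicate 3 was left out and 33 without both libraries that stood apart. Leaving out each of the other 4 libraries gave 0. The part of replicate 1 of each day in the calls beyond these values was not tested.

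**Figure D3:**
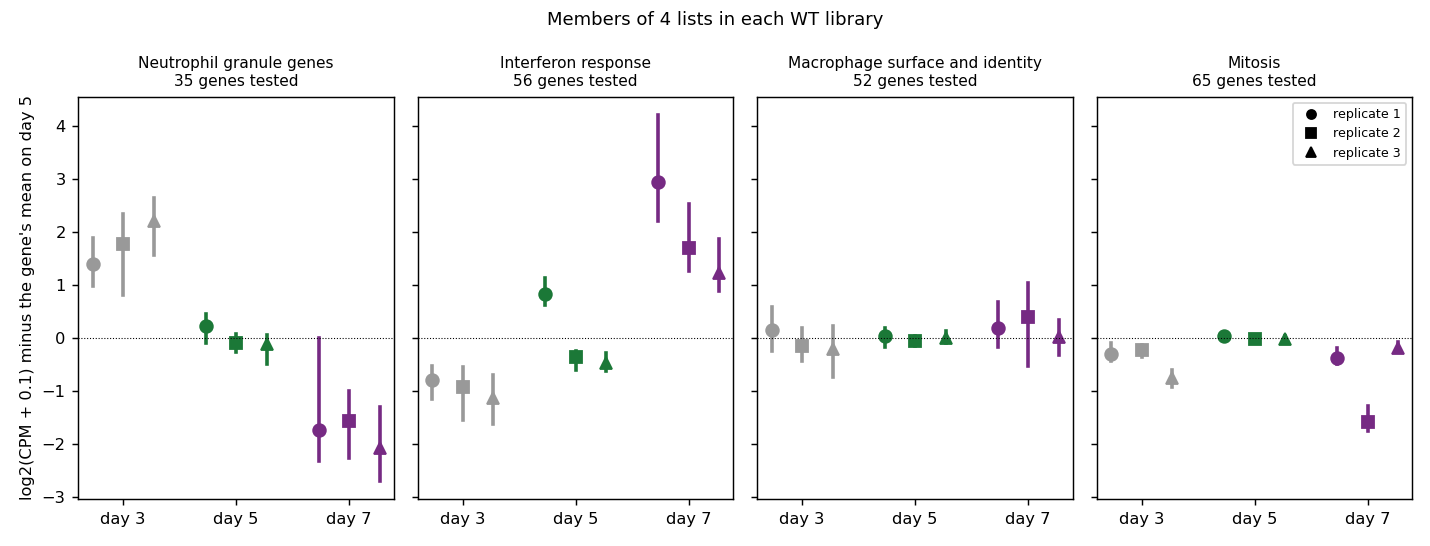
Median over the members of 4 lists in each of the 9 WT libraries, as log2(CPM + 0.1) minus the same gene's mean on day 5, so that 0 is the day 5 level; vertical lines span the quartiles over genes and grey, green and purple mark days 3, 5 and 7. Granule genes step down from day 3 to day 7, interferon genes are highest in day 7 replicate 1 and raised in day 5 replicate 1, macrophage surface genes stay near 0, and mitosis genes are lowest in day 7 replicate 2.

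Macrophage surface and identity genes went both ways between the days, with log2 fold changes from -1.60 to 2.49 and few calls. Of 52 tested surface genes 0 were called higher and 1, Vcam1, was called lower, with a median log2 change of 0.24 and 20 members higher and 4 lower at an unadjusted p under 0.05 (DESeq2 called 6 higher and 3 lower). The defining markers were well detected on both days. Csf1r, the M-CSF receptor, was at 1552, 1702 and 1749 CPM on day 5 and at 1861, 4463 and 1849 CPM on day 7. Adgre1, which encodes F4/80, had means of 928 ± 100 and 1539 ± 617 CPM, and Cd68, a lysosomal glycoprotein of macrophages, had 734 ± 62.5 and 934 ± 169 CPM. Itgam, which encodes CD11b, was at 171 ± 5.27 and 154 ± 15.5 CPM. Adjusted p-values were 0.191, 0.318, 0.373 and 0.571. Mertk and Mrc1, receptors for apoptotic cells and for mannose, had means of 67.8 ± 9.40 and 617 ± 268 CPM on day 5 and of 103 ± 55.8 and 1244 ± 548 CPM on day 7, with overlap between days (adjusted p 0.402 and 0.229). Apoe, the lipid-carrying apolipoprotein E, was at 324, 249 and 287 CPM and then at 861, 3482 and 471 CPM. The days did not overlap and the day 7 levels spread widely (adjusted p 0.0801, log2 fold change 2.48, SE 0.60).

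Transcription factors of macrophages gave 0 calls by edgeR among 52 tested, with a median of 0.04, 7 higher and 10 lower at an unadjusted p under 0.05 and 3 higher and 5 lower by DESeq2. Spi1, which encodes PU.1, was at 241 ± 8.81 and 298 ± 56.9 CPM (adjusted p 0.462). Maf, which restrains self-renewal of macrophages, was at 626, 409 and 413 CPM on day 5 and at 708, 1083 and 760 CPM on day 7, without overlap (adjusted p 0.0831). Cebpb, which encodes a C/EBP factor of myeloid cells, was at 107 ± 24.3 and 75.2 ± 16.1 CPM (adjusted p 0.385).

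Receptors and lysosomal genes had positive medians and no call. Fc receptor and complement genes showed a median log2 change of 1.04 over 18 tested members, 10 of them higher and 0 lower at an unadjusted p under 0.05, with 0 called by edgeR and 3 higher by DESeq2. Fcgr1, the high-affinity IgG receptor, was at 89.1, 74.6 and 73.4 CPM and then at 475, 141 and 99.1 CPM (adjusted p 0.177). C1qa, a chain of complement C1q, had means of 232 ± 82.4 and 477 ± 121 CPM, and C3, the central complement component, 77.3 ± 26.1 and 179 ± 60.2 CPM (adjusted p 0.245 and 0.145). Both were higher in each day 7 library than in any of day 5.

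Toll-like and other pattern receptors had a median of 0.47 over 23 tested genes, with 0 called by edgeR, 2 higher by DESeq2 and 10 higher and 0 lower at an unadjusted p under 0.05. Tlr7 and Tlr9, endosomal sensors of RNA and of CpG DNA, had means of 162 ± 55.0 and 20.6 ± 11.8 CPM on day 5 and of 315 ± 120 and 64.3 ± 39.3 CPM on day 7 (adjusted p 0.128 and 0.149). Cd14, the lipopolysaccharide co-receptor, was at 146 ± 32.4 and 285 ± 20.9 CPM (adjusted p 0.214). Of 67 lysosomal genes 54 had positive and 13 negative log2 fold changes, with a median of 0.25, 24 higher and 2 lower at an unadjusted p under 0.05, 0 called by edgeR and 5 higher and 1 lower by DESeq2. Hexa, a subunit of the ganglioside-degrading enzyme hexosaminidase A, was at 476, 381 and 387 CPM and then at 564, 1120 and 574 CPM (adjusted p 0.0801), and Ctsd, the cathepsin D gene, was at 2573 ± 81.0 and 2813 ± 484 CPM (adjusted p 0.767).

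Cell cycle genes had negative medians and no call by edgeR, and 1 library was far below the rest. Of 65 tested mitosis genes 63 were negative, with a median log2 change of -0.59. Of these members 42 were lower without overlap, against 7.18% of all genes tested. At an unadjusted p under 0.05, 1 was higher and 31 were lower, and DESeq2 called 0. The median of the list was -0.28 without WT day 7 replicate 2 and -0.25 without both libraries that stood apart. Mki67, the gene of the proliferation antigen Ki-67, was at 1265, 1044 and 1121 CPM on day 5 and at 585, 307 and 1043 CPM on day 7 (adjusted p 0.258, log2 fold change -0.83, SE 0.37). Top2a, the topoisomerase that untangles chromosomes, was at 629, 601 and 588 CPM and then at 487, 176 and 563 CPM (adjusted p 0.332). WT day 7 replicate 2 was the lowest library for both, and WT day 7 replicate 3 was close to the lowest day 5 library. Plk1, a mitotic kinase, had means of 78.3 ± 9.88 and 47.8 ± 19.8 CPM, and Cdk1, the kinase that starts mitosis, 103 ± 5.33 and 76.8 ± 32.2 CPM (adjusted p 0.198 and 0.411).

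For DNA replication genes the median went to 0 without that library. The median over 50 tested members was -0.36 with all libraries, 48 of them negative, and 0.00 without WT day 7 replicate 2. No member was called by edgeR, 1 was lower by DESeq2, and 0 were higher and 3 lower at an unadjusted p under 0.05. Rrm2, a subunit of ribonucleotide reductase, was at 135, 188 and 186 CPM on day 5 and at 139, 24.3 and 108 CPM on day 7 (adjusted p 0.246). Genes for ribosome production had a median of -0.49 over 36 tested members, 35 of them negative, with 0 called by edgeR, 1 lower by DESeq2 and 0 higher and 15 lower at an unadjusted p under 0.05. That median was -0.22 without WT day 7 replicate 2. Nop58, a core protein of box C/D small nucleolar particles, was at 36.4, 76.7 and 71.4 CPM and then at 40.8, 12.9 and 42.7 CPM (adjusted p 0.182). WT day 5 replicate 1 was the low library of its day, as it was for Fn1.

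Sterol synthesis genes had 24 positive values of 25, with a median of 0.60, 5 higher and 0 lower at an unadjusted p under 0.05 and 0 called by edgeR or DESeq2. Insig1, which holds the sterol sensor SCAP in the endoplasmic reticulum, was at 174, 56.8 and 60.1 CPM and then at 256, 118 and 231 CPM (adjusted p 0.233). Its day 5 replicate 1 lay within the day 7 range. Without both libraries that stood apart 14 members of the list were called higher and the median was 1.41, and without WT day 5 replicate 1 alone 3 were called higher with a median of 1.06. For ribosome production the same exclusions gave 9 and 6 members called lower.

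**Figure D4:**
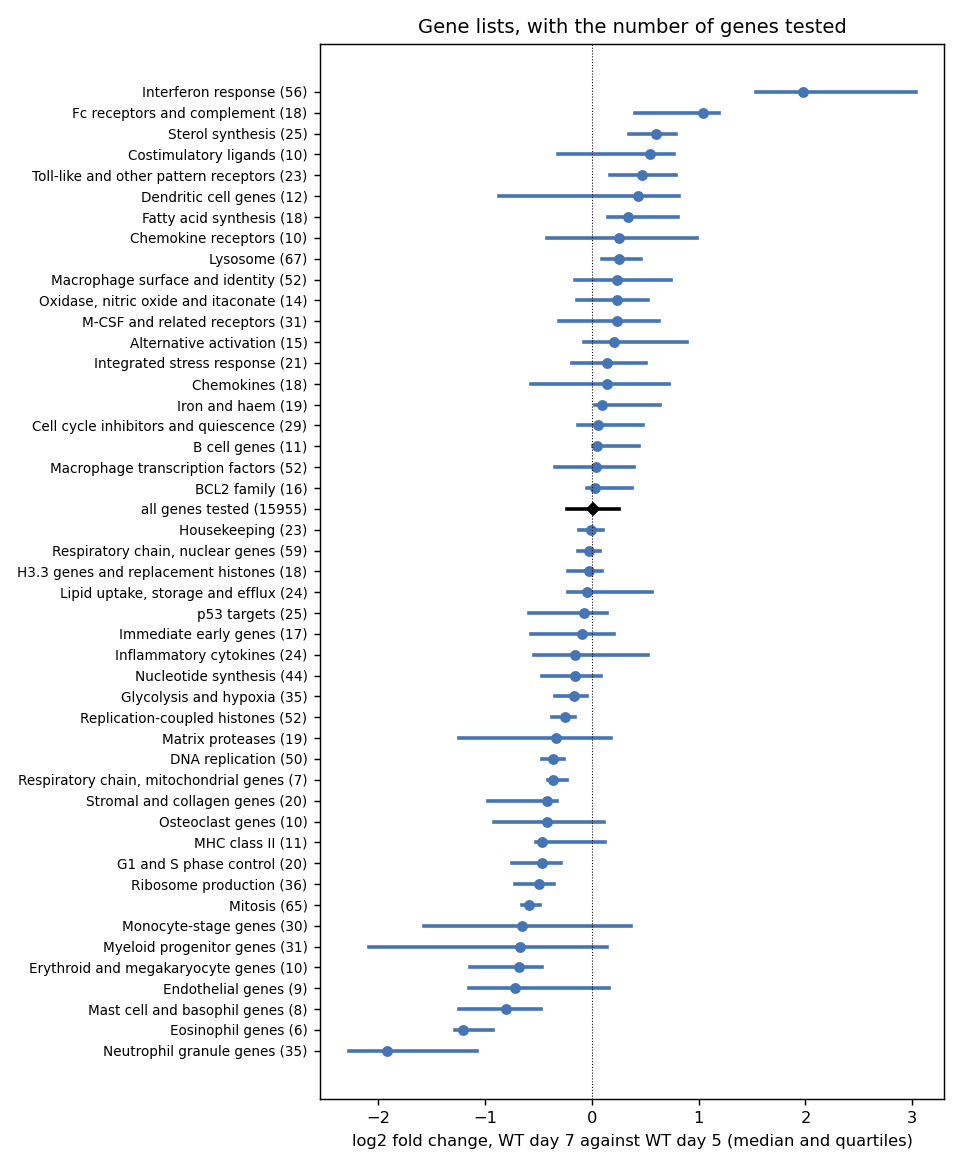
Median (point) and quartiles (line) of the log2 fold change of WT day 7 against WT day 5 for each gene list, ordered by median, with the number of genes tested in brackets; black marks all 15955 genes tested. Interferon genes (median 1.98) and neutrophil granule genes (median -1.92) lie at the ends, and most lists lie within 1 log2 unit of 0.

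Markers of other marrow cells were near 0 for T and NK cells, mast cells and eosinophils and had measurable sums for the rest. Of the T and NK cell genes 1 of 18 passed the filter, with a summed level of 0.829 to 1.13 CPM on day 5 and 1.04 to 1.34 CPM on day 7, and Cd3e, Ncr1 and Gzma were at 0 in all day 7 libraries. Mast cell and basophil genes (8 of 13 tested) summed to 2.68 to 3.34 CPM and then to 2.40 to 5.74 CPM, with Fcer1a at 0 on both days. Eosinophil genes (6 of 9 tested) summed to 3.37 to 4.49 CPM and then to 2.17 to 17.6 CPM, the highest in WT day 7 replicate 1. Erythroid and megakaryocyte genes (10 of 16 tested) summed to 79.2 to 183 CPM and then to 74.6 to 140 CPM, with Hbb-bs at 0 on day 7. Most of each sum came from 1 gene, Pf4, at 74.6, 179 and 177 CPM on day 5 and at 137, 70.4 and 75.4 CPM on day 7. The globin gene Hba-a1 was at 0.103 CPM or less in all libraries of both days. Stromal and collagen genes summed to 45.2 to 90.4 CPM and then to 31.0 to 74.4 CPM, and endothelial genes to 124 to 128 CPM and then to 110 to 202 CPM. Dendritic cell genes summed to 167 to 243 CPM on day 5 and to 251 to 524 CPM on day 7, without overlap, which was 205% of the day 5 mean. B cell genes summed to 79.3 to 200 CPM and then to 158 to 319 CPM, with overlap, at 177% of the day 5 mean. In both lists 0 members were called by edgeR, with 2 higher and 2 lower dendritic cell genes and 0 B cell genes at an unadjusted p under 0.05. The part of these cells in the results above was not tested.

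Several further lead genes lay in lists with few or no calls. Mmp12, the macrophage elastase gene, was at 132, 248 and 230 CPM on day 5 and at 83.1, 37.4 and 92.2 CPM on day 7, without overlap (adjusted p 0.0961, log2 fold change -1.52, SE 0.41). Its list, the matrix proteases, had 1 of 19 tested members called lower, Mmp8. Cx3cr1, the fractalkine receptor, overlapped between days (270 ± 116 and 182 ± 38.7 CPM, adjusted p 0.565). Ccr1, a receptor for CC chemokines, was at 28.9, 84.0 and 77.9 CPM and then at 29.5, 24.4 and 32.1 CPM, so that WT day 5 replicate 1 lay in the day 7 range (adjusted p 0.103). Fos, an immediate early gene, had means of 80.0 ± 4.05 and 40.6 ± 25.1 CPM, Hk2, which encodes hexokinase II, 113 ± 32.9 and 74.5 ± 18.1 CPM, and Abca1, the cholesterol efflux transporter, 293 ± 255 and 864 ± 492 CPM (adjusted p 0.193, 0.221 and 0.230). Arg1, the arginase gene of alternatively activated macrophages, was at 4.03 ± 1.53 and 1.94 ± 1.62 CPM (adjusted p 0.540).

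The same step was measured in cKO cells, in which cre targets both H3.3 genes in the myeloid lineage. H3f3a was at 8.94, 9.96 and 8.96 CPM in the cKO libraries of day 5 and at 6.82, 10 and 8.71 CPM in those of day 7, against 46.0, 47.2 and 48.1 CPM and then 53.5, 69.0 and 44.2 CPM in WT. H3f3b was at 206, 160 and 149 CPM and then at 181, 167 and 157 CPM in cKO, against 199, 231 and 224 CPM and then 280, 181 and 207 CPM in WT. Its levels overlapped between the genotypes on both days. The paper describes H3f3b deletion as variable, complete in some cKO samples and partial in others. It also reports loss of H3.3 mRNA in cKO BMDMs by qRT-PCR and RNA-seq, and loss of the protein on day 7 by western blot. Lyz2, the gene that carries cre, was at 4.57 to 14.1 CPM over the 6 cKO libraries and at a mean of 8881 ± 126 CPM on day 5 and 10780 ± 4268 CPM on day 7 in WT. In WT, none of these 3 genes passed the test between days (log2 fold changes 0.24, 0.03 and 0.28, adjusted p 0.426, 0.950 and 0.768).

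In cKO cells 9 genes were called between day 5 and day 7 (0.0564% of those tested), 9 lower and 0 higher. Of these, 6 were called in WT too: Fcnb, F730016J06Rik, Chil3, Myb, Elane and Rab44. The other called genes were Mreg, Prom1 and Mgam, named because of the count. Of the 26 genes called lower in WT, 26 had negative values in cKO, between -2.95 and -0.60, and of the 12 called higher in WT, 10 had positive and 2, Ms4a4a and BC147527, negative values. Elane was at 120, 34.3 and 49.8 CPM on day 5 and at 12.8, 3.34 and 10.2 CPM on day 7 in cKO (log2 fold change -2.95, adjusted p 0.0416). Granule genes showed a median log2 change of -2.45 in cKO, -1.52 without cKO day 5 replicate 1, and of -1.92 in WT. The cKO calls moved with the libraries too: DESeq2 called 98 genes, edgeR called 0 (894 at an unadjusted p under 0.05) without cKO day 5 replicate 1, 0 (456) without cKO day 7 replicate 2 and 0 (488) without cKO day 7 replicate 3, and it called 47 without cKO day 7 replicate 1.

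The difference between the steps was tested with the interaction contrast, and edgeR called 0 of 15955 genes (0%), with 574 at an unadjusted p under 0.05 and all adjusted p-values at 0.988 or more. DESeq2 called 1. The interferon response list stood at a median of -2.10 for the difference, with 56 of 56 members negative, 0 called and 47 (83.9%) at an unadjusted p under 0.05, against 3.6% of all genes. Its median step was 1.98 in WT and 0.10 in cKO, and the cKO value rested on 1 library: without cKO day 5 replicate 1 the cKO median was 1.04 with 56 of 56 members positive, and the median difference was -1.08 with 16 members at an unadjusted p under 0.05. Irf7 was at 1126, 133 and 166 CPM in cKO on day 5 and at 546, 294 and 330 CPM on day 7, so the days overlapped and day 5 replicate 1 stood apart. Isg15 was at 216, 17.8 and 23.1 CPM and then at 90.9, 53.2 and 52.2 CPM. Irf9 was at 100.3, 68.7 and 75.2 CPM and then at 95.3, 83.5 and 86.8 CPM. Ms4a4a was at 2.90, 2.85 and 1.38 CPM and then at 2.24, 1.29 and 0.262 CPM (difference of log2 fold changes -5.47, adjusted p 0.988). For granule genes the median difference was -0.39, with 0 called and 0 members at an unadjusted p under 0.05, and it was 0.54 without cKO day 5 replicate 1.

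The test of the difference also moved with the libraries. It called 1 gene without WT day 5 replicate 1, Oas2, an interferon response gene, and 0 after leaving out any other WT or cKO library of the 2 days. The count at an unadjusted p under 0.05 moved from 574 to 290 without cKO day 5 replicate 1 and to 1516 when WT day 7 replicate 3 was left out. Without a filter on low counts it called 19 genes, among them Ifit1, Oasl1, Ifi47, Ms4a4a and BC147527, all with a negative difference.

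**Figure D5:**
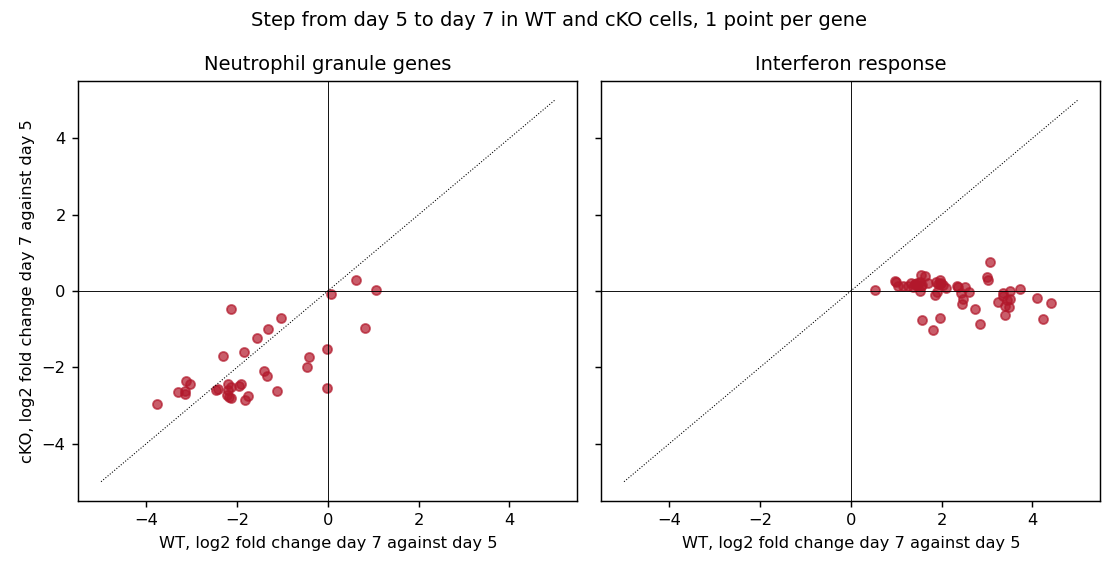
Log2 fold change from day 5 to day 7 in WT (x axis) and cKO (y axis), with 1 point per tested gene of the neutrophil granule list (35) and of the interferon response list (56); the dotted line marks equal steps. Granule genes lie near the line in the lower left, and all 56 interferon genes lie to the right of 0 in WT with cKO values between -1.03 and 0.76 when all libraries are used.

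A further day of WT culture was sequenced in a separate experiment, 3 untreated libraries of day 8, whose counts were scaled among themselves and were not tested against day 7. In all, 11284 genes passed the filter on low counts there, against 15955 in the time course. Of the 26 genes called lower on day 7, 7 passed it, and of the 12 called higher, 11 did. The filter acts on level, so genes that were low on day 7 were less likely to pass, and these counts do not test the calls. Mmp8 was at 34.3 ± 8.76 CPM (SD, n = 3), Vcam1 at 3.40 ± 1.99, Papss2 at 9.67 ± 3.48 and Ckap4 at 44.3 ± 0.320, beside day 7 means of 37.6, 3.13, 7.68 and 37.6 CPM. Elovl7, at 4.27 ± 1.46 CPM, was above its day 7 mean of 0.884 CPM. Irf9 was at 71.2 ± 2.29, Irf1 at 48.0 ± 4.56, Ifi47 at 32.8 ± 3.53 and Agrn at 33.4 ± 4.59 CPM, beside day 7 means of 86.7, 59.0, 48.1 and 50.1 CPM. Ms4a4a was at 3.24 ± 0.878, Tmem176b at 19.7 ± 11.6 and Cbr2 at 21.2 ± 5.36 CPM, beside day 7 means of 24.6, 74.2 and 47.1 CPM.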

How the data were processed

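RNA from WT and cKO marrow cultures of days 3, 5 and 7 was depleted of rRNA and sequenced as paired ends. Per the study's methods the authors removed adapters with Cutadapt and aligned reads to mm10 with STAR, and the deposited files hold raw read counts per gene as STAR writes them; versions are not given in the sources used here. The methods also name RSEM and SARTools for the authors' own tests. The column of counts without strand was used, since either strand column held about the same number of reads (50.4% to 50.7% in the larger). In the 6 WT libraries of days 5 and 7, 6.86% to 9.17% of read pairs were unmapped, 8.69% to 10.9% mapped to several places, 10.1% to 18.1% lay outside genes and 4.67% to 5.63% were ambiguous between genes; these counts were kept out of library sizes and tests, and reads of overlapping genes may be lost or shared. Of the 38 called genes, 19 overlap another locus and 8 a protein-coding one.

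All 18 libraries of the time course entered 1 edgeR model (edgeR 4.0.16 in R 4.3.3, quasi-likelihood test) with 1 term per genotype and day, TMM scaling and filterByExpr by group (smallest count 10, smallest total 15). P-values were adjusted by Benjamini-Hochberg over the 15955 genes, and calls have an adjusted value under 0.05. CPM values are scaled by TMM, and SE is the log2 fold change divided by the root of F. Alternatives were DESeq2 1.42.0 size factors and test, RLE scaling, other filters, the larger strand column, fewer groups in the model, a replicate block and each library left out. Genes were named by rule: called genes whose days do not overlap and whose average log2 CPM reaches 3, at most 12 in each direction by size of change, the lead genes of each list, at most 5 further called members of each list, and H3f3a, H3f3b and Lyz2. The samples compared, gene lists, motifs and rule were chosen with earlier results of these data known. On simulated data for this comparison (15558 genes), the test recovered 52 of 100 genes changed by a log2 fold change of 1 and 98 of 100 changed by 2, with 5 false calls.

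Promoter windows were taken from a RefSeq table of 32851 windows (GRCm38.p6) and matched by symbol.

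Some results are not reported here.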

Additional observations from a re-analysis of the deposited data

How the results depend on the processing

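The 38 calls (12 higher, 26 lower) moved to 621 (370 and 251) with DESeq2, 592 (364 and 228) with no filter on low counts, 258 (171 and 87) with the replicate block, 25 (5 and 20) with RLE scaling, and 13 (0 and 13) with a model of the 6 WT libraries alone. They moved to 371 (210 and 161) without both libraries that stood apart, a setting chosen after seeing the data. The larger strand column gave 32 calls (7 and 25), the 9 WT libraries alone gave 27 (1 and 26), and a mean of at least 1 CPM gave 37. Leaving out each library gave 1 to 523 calls, 0 to 316 higher and 1 to 231 lower. The direction of the called genes was the same wherever they were tested, which the lack of overlap between their days largely fixed in advance. Deviations of same-numbered libraries of the 2 days correlated at -0.137, -0.094 and 0.048, and those of libraries with different numbers at -0.132 to 0.145. With 3 libraries per day these values cannot decide whether same-numbered libraries share an animal or a batch. The labels do not say, and the replicate block moved the calls as given above. The difference between steps gave 0 calls with all libraries, 1 with DESeq2 (Ccl8), 1 with the replicate block (Saa3), 19 with no filter, and 0 to 1 when a library was left out. Anxa1 changed sign, from a log2 fold change of 0.07 to -0.048 with the replicate block and -0.59 when WT day 7 replicate 1 was left out (up to 0.378 without WT day 7 replicate 2). H3f3b changed sign too, from 0.03 to -0.05 without WT day 5 replicate 1 and to -0.17 when WT day 7 replicate 1 was left out (up to 0.159 without WT day 7 replicate 2). The cause of these changes was not tested. On simulated data, in which no library stood apart, the test recovered 52 of 100 genes changed by a log2 fold change of 1. Smaller changes were not simulated.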
